A study of Triticum aestivum with 8 samples.

Results

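Open chromatin was compared between leaves and roots of the bread wheat cultivar AiKang58 (Triticum aestivum, a hexaploid). The comparison used the ATAC-seq peak lists of these tissues, which rest on 4 of the 8 libraries of the series, 2 for leaves and 2 for roots. In ATAC-seq a transposase places sequencing adapters wherever DNA is open to it, and a peak is a stretch where such insertions pile up. Both tissues came from 2-week-old seedlings kept at 22 °C for 16 h of light and at 19 °C for 8 h of dark. The leaf list held 123032 peaks and the root list 119387, 242419 in all. A peak was called shared when at least 1 bp of it lay in a peak of the other list, and leaf-specific or root-specific otherwise. By this rule 69518 leaf peaks and 69718 root peaks were shared, 53514 peaks were leaf-specific and 49669 were root-specific.

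Accessible DNA in plants marks mainly promoters, enhancers and other sequences to which transcription factors bind, and part of it changes with the tissue. Leaves are the main site of photosynthesis, and roots take up water and minerals, anchor the plant and respond to the soil. Bread wheat carries 3 related subgenomes, A, B and D, each of 7 chromosomes, so that each homoeologous group joins an A, a B and a D chromosome of common descent. Along wheat chromosomes genes and recombination are concentrated toward the ends, and the interior is rich in transposable elements and recombines little.

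Each tissue had 1 list for its 2 libraries, which gives the borders of every peak but neither its height nor its reads. Differences between the lists therefore have no replicate error, the depth behind each list is unknown, and DNA outside the peaks may still have been open. Intervals of shares are 95% Wilson intervals, intervals of ratios were derived from them, and both cover only the error of counting peaks. In bulk tissue fewer cells with an open site and less opening per cell cannot be told apart. Positions follow the deposited lists. The sources used here do not name their genome build. No peak was therefore assigned to a gene, and the tissue labels were not checked against marker genes.

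By the 1 bp rule most peaks of each tissue had a counterpart in the other, and the bases in common were about as many as the bases in one tissue alone. The share of leaf peaks that overlapped the root list was 56.5% (95% interval 56.2 to 56.8). The share of root peaks that overlapped the leaf list was 58.4% (58.1 to 58.7). With a reciprocal overlap of 50% these shares were 37.9% and 39.0%, so the majority rests on the 1 bp rule. Counted in bases, 41.9 Mb lay in both lists, which was 49.1% of the 85.3 Mb of leaf peaks and 52.7% of the 79.4 Mb of root peaks. For scale, leaf peaks covered 0.606% and root peaks 0.564% of the length of the 21 chromosomes. Leaf-specific peaks held 27.6 Mb, or 32.3% of leaf peak bases, and root-specific peaks held 24.5 Mb, or 30.8% of root peak bases. Specific peaks thus made up a larger part of each list by number than by length.

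Most shared peaks matched a single partner. There were 61315 pairs in which 1 leaf peak and 1 root peak overlapped each other and no further peak, which took in 88.2% of the shared leaf peaks and 87.95% of the shared root peaks. A further 2866 leaf peaks each spanned 2 or more root peaks (at most 5), and 2714 root peaks spanned 2 or more leaf peaks (at most 6). In the pairs the midpoints were a median of 89 bp apart, with 191 bp as the upper quartile. The narrower peak lay wholly inside the wider one in 57.1% of pairs, and in 73.5% the overlap was at least 50% of both peaks. The pairs therefore sat at nearly the same positions but seldom had the same borders, and 225 of them had an identical start and end.

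The wider peak of a pair came from leaves and roots about equally often. The leaf peak was wider in 47.95% of pairs, the root peak in 47.5%, and the widths were equal in 4.52%. The median log2 ratio of leaf to root width was 0, with quartiles of -0.44 and 0.50. At the extremes the pairs differed by position. Among the 7450 pairs with a leaf peak at least 2-fold wider, 55.2% lay in the outer 20% of the chromosome at either end. Among the 6331 pairs with a root peak at least 2-fold wider, 69.0% lay there, against 59.2% of all pairs.

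Specific peaks were narrow in both tissues. Leaf-specific peaks had a median width of 400 bp (quartiles 300 and 600) and root-specific peaks 375 bp (300 and 575), against 625 bp (375 and 1025) for shared leaf peaks and 600 bp (400 and 950) for shared root peaks. Of the leaf-specific peaks 8.11% measured 1 kb or more (95% interval 7.88 to 8.34), and of the root-specific peaks 6.36% did (6.15 to 6.58). Among shared peaks 26.1% of the leaf list (25.8 to 26.5) and 23.2% of the root list (22.9 to 23.5) were as wide. A wide peak has more bases with which to meet the other list, so part of this contrast is set by the rule. The share of peaks that were shared rose from class to class of width. It was 38.3% in leaves and 35.1% in roots for peaks of up to 300 bp, 70.04% and 73.9% for peaks above 700 and up to 1000 bp, and 91.1% and 93.2% above 4000 bp.

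**Figure D1:**
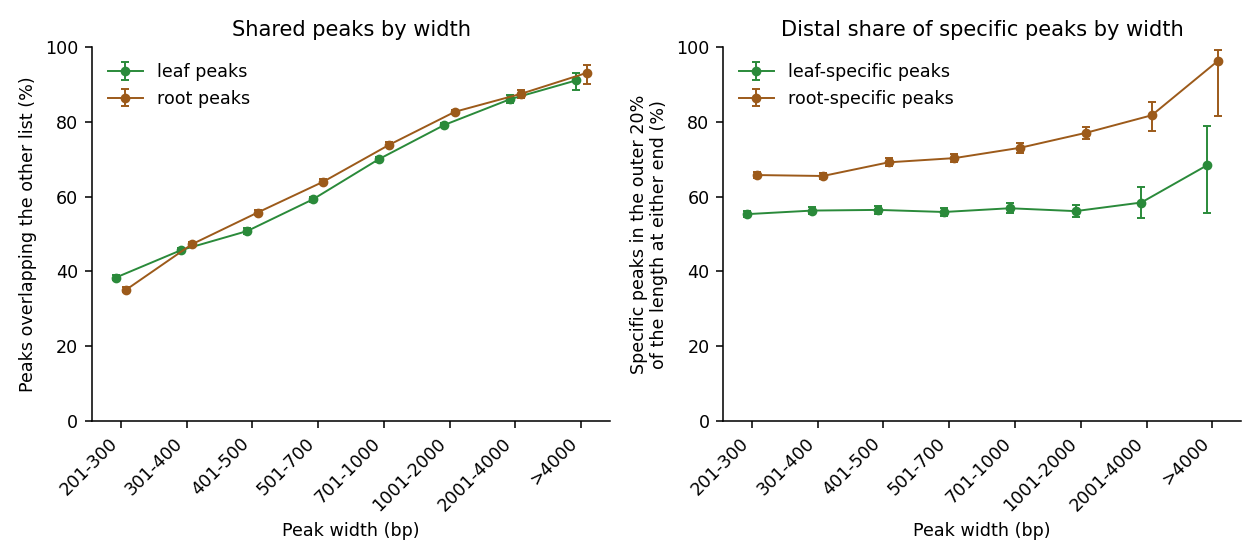
Left, percent of leaf and root peaks that overlap the other list in 8 classes of peak width (bp); right, percent of leaf-specific and root-specific peaks in the outer 20% of the chromosome at either end in the same classes. Points are shares and bars 95% Wilson intervals over peaks; the shared share climbs from under 40% to over 90% in both lists, and the distal share of root-specific peaks is above that of leaf-specific peaks in each class.

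An overlap of 1 bp can hide a large difference at very wide peaks. The widest leaf peak with a root overlap lay on chromosome 2B from 367713084 to 367726658 (13575 bp), and 2 root peaks covered 4.24% of it. The next, on 4A from 564143187 to 564156555 (13369 bp), was covered to 27.9%, and the third, on 5D from 539214047 to 539225921 (11875 bp), to 93.9%. The widest root peak with a leaf overlap lay on 7B from 292831126 to 292843175 (12050 bp), and 2 leaf peaks covered 4.36% of it. The second, of 11787 bp, lay on 6D from 5176567 to 5188353 and was covered to 52.1%. The third, of 10600 bp, lay on 4B from 585957887 to 585968486 and was covered to 2.83%. So 4 of these 6 shared peaks had most of their length in one tissue alone. Of all 653 leaf peaks of at least 4 kb, specific ones included, 125 (19.1%, 95% interval 16.3 to 22.3) had under 25% of their bases in root peaks and 278 (42.6%) had at least 75%. Of the 402 root peaks of at least 4 kb, 59 (14.7%, 11.6 to 18.5) had under 25% in leaf peaks and 232 (57.7%) at least 75%. These limits of coverage were chosen after the data were seen.

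Among peaks without any overlap, the widest leaf-specific peak lay on 3D from 18792123 to 18800922 (8800 bp), 5002 bp from the nearest root peak. The second, of 6900 bp, lay on 4D from 37928916 to 37935815, and the third, of 6825 bp, on 3B from 325833267 to 325840091. The widest root-specific peak lay on 1D from 408236697 to 408243996 (7300 bp), 8008 bp from the nearest leaf peak. It was followed by peaks on 4A from 739602100 to 739608799 (6700 bp), 4.94 Mb from the end of the chromosome, and on 6A from 96038408 to 96044968 (6561 bp). The 6A peak was the most isolated of the 6, with the nearest leaf peak 221728 bp away.

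Most specific peaks were not near misses of a peak in the other tissue. The nearest root peak was a median of 7942 bp from a leaf-specific peak (quartiles 1935 and 47341), and the nearest leaf peak a median of 8997 bp from a root-specific peak (2243 and 47878). Within 500 bp of the other list lay 8.54% of leaf-specific and 6.46% of root-specific peaks. More than 100 kb away were 8519 leaf-specific and 6953 root-specific peaks. Of these isolated peaks, 35.3% of the leaf-specific and 53.1% of the root-specific lay in the outer 20% of the length, against 60.96% and 66.8% of those within 1 kb of the other list. Isolated specific peaks of both tissues thus lay more often in the interior, where peaks of both lists are sparse.

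Leaf-specific and root-specific peaks differed in their place along the chromosome. Peaks of all classes lay mostly toward the ends, root-specific peaks the most and leaf-specific peaks the least. The outer 20% of the length at either end held 68.3% of root-specific peaks (95% interval 67.9 to 68.7) and 56.05% of leaf-specific peaks (55.6 to 56.5). Shared peaks lay between them, at 59.9% in the leaf list and 59.7% in the root list. In the whole lists the distal share was 58.2% for leaf peaks and 63.3% for root peaks. The median distance from a peak to the nearer chromosome end was 73.9 Mb for root-specific peaks (quartiles 26.6 and 163.1), 113.6 Mb for leaf-specific peaks (43.8 and 208.8) and 102.7 Mb for shared leaf peaks. In the outermost 2.5% of the length at either end lay 16.8% of root-specific, 11.9% of shared leaf and 10.9% of leaf-specific peaks. Chromosome ends were set by the last peak of either list.

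**Figure D2:**
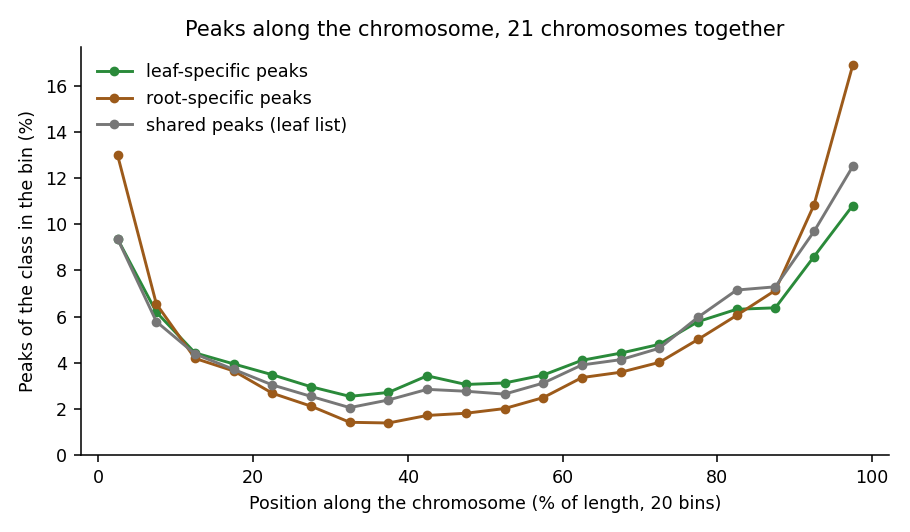
Percent of leaf-specific, root-specific and shared peaks (y axis) in 20 bins of chromosome length (x axis, percent of length), over the 21 chromosomes together. Root-specific peaks exceed the other classes in the first and last bins (12.98% and 16.9%) and fall below them in the interior.

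The order of the classes recurred on single chromosomes. The distal share of root-specific peaks was above that of leaf-specific peaks on 21 of 21 chromosomes, by 7.62 percentage points on 4D to 21.02 on 3B, with a median of 12.2. It was also above that of the shared root peaks on 21 of 21. The distal share of leaf-specific peaks was below that of shared leaf peaks on 20 of 21, with 1A as the exception (58.5% and 58.3%). On 3B 49.98% of leaf-specific and 71.0% of root-specific peaks were distal. Chromosomes of 1 list are not replicates of a tissue, so these counts carry no test.

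**Figure D3:**
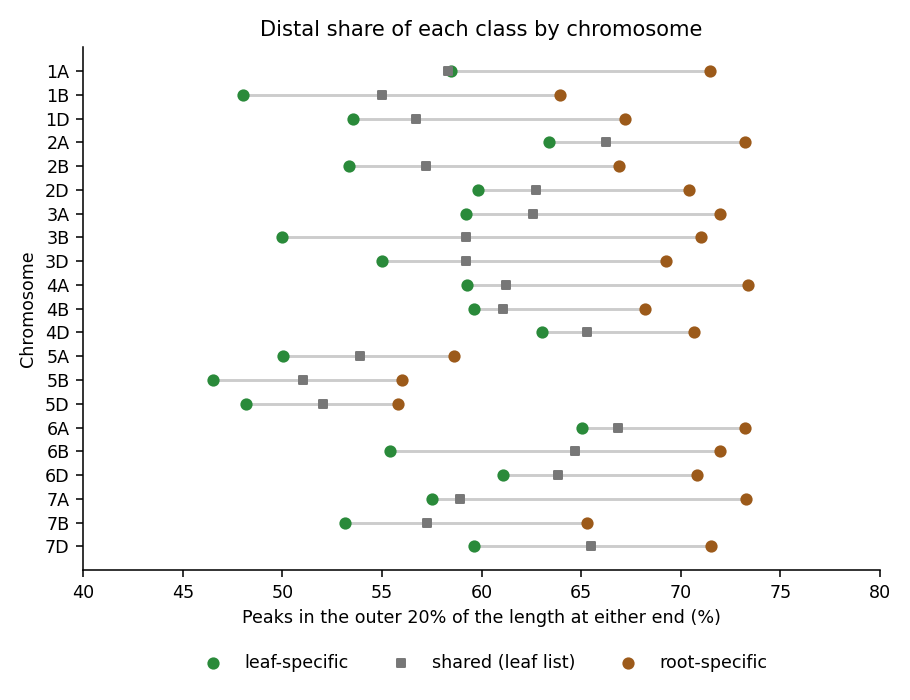
Percent of leaf-specific, shared and root-specific peaks in the outer 20% of the length at either end (x axis, starting at 40%) for each of the 21 chromosomes (y axis). On each chromosome the root-specific point lies to the right of the leaf-specific point, and both are lowest within their subgenomes on 5A, 5B and 5D.

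In megabases from the nearer end the balance turned at about 50 to 100 Mb. In the last 1 Mb there were 324 leaf-specific and 526 root-specific peaks, a ratio of 0.616 (95% interval 0.536 to 0.707), and root-specific peaks were more numerous on 15 of 21 chromosomes. Between 10 and 20 Mb the ratio was 0.735 (0.703 to 0.768), and between 50 and 100 Mb it was 0.977 (0.9498 to 1.005). More than 200 Mb from either end there were 14433 leaf-specific and 8952 root-specific peaks, a ratio of 1.61 (1.57 to 1.66), with more leaf-specific peaks on 21 of 21 chromosomes. As a share of its own list, the root-specific class changed more along the chromosome than the leaf-specific class. Root-specific peaks were 52.6% of root peaks in the last 1 Mb and 34.9% beyond 200 Mb, and leaf-specific peaks were 39.7% and 46.4% of leaf peaks. Over the 20 bins of relative length the ratio was highest from 40% to 45% of the length, at 2.15 (1.98 to 2.33), and lowest in the last 5%, at 0.690 (0.667 to 0.713).

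Root-specific peaks were the more distal class in each of the 8 classes of width. Among peaks of up to 300 bp, 65.8% of root-specific (95% interval 65.1 to 66.6) and 55.3% of leaf-specific peaks (54.6 to 56.1) were distal. Among peaks above 1000 and up to 2000 bp, 77.1% of root-specific (75.5 to 78.7) and 56.2% of leaf-specific peaks (54.5 to 57.8) were distal. Above 2000 and up to 4000 bp the shares were 81.8% of 385 root-specific and 58.5% of 556 leaf-specific peaks, and above 4000 bp they were 96.3% of 27 and 68.4% of 57. Root-specific peaks were thus more distal the wider they were from 400 bp upward, whereas the leaf-specific share stayed between 55.3% and 58.5% up to 4000 bp. Shared root peaks also went from 54.5% in the narrowest class to 74.9% in the widest.

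Runs of specific peaks of one tissue were mostly short. In the position order of both lists together, 19223 of 30954 runs of leaf-specific peaks and 17673 of 28593 runs of root-specific peaks were a single peak. Runs of 5 or more numbered 1314 for leaves and 1206 for roots and held 15.7% and 15.6% of the specific peaks. The tissues had similar numbers of such runs, but at different places. How many runs of this length the specific shares alone would give was not computed. Of the leaf runs of 5 or more 51.1% were distal, against 81.8% of the root runs. Among runs of 10 or more 52.2% of 92 leaf runs and 96.7% of 90 root runs were distal.

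The longest leaf-specific run had 23 peaks on 5A from 548580526 to 549216880, 160.5 Mb from the end, and the next had 20 peaks on 7A from 619597725 to 620288376. The longest root-specific run had 25 peaks on 7B from 673964206 to 674742112, a span of 777.9 kb. The second had 19 peaks within 159.7 kb on 6D, from 3915881 to 4075543. By definition a run holds no peak of the other tissue.

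Regional differences were mapped in windows of 1 Mb. Of the 4496 windows with at least 20 peaks of both lists together, 140 (3.11%) had a leaf count at least 2-fold above the root count after division by list size, and 192 (4.27%) had a root count at least 2-fold above the leaf count. In the outer 20% at either end 2.15% of windows were leaf-higher and 5.64% root-higher. In the remaining length 5.31% were leaf-higher and 1.16% root-higher. So 176 of the 192 root-higher windows (91.7%) were distal, as were 67 of the 140 leaf-higher windows (47.9%) and 69.4% of all windows tested. Which tissue had more such windows depended on the minimum. With at least 10 peaks per window 593 of 8718 windows were leaf-higher and 450 root-higher. With at least 40 peaks the counts were 12 and 43 of 1219. At the minimum of 20, a split of 14 and 6 peaks was enough for a call. How many windows would pass by the error of counting alone was not computed. Across the 13566 windows with a peak in either list, leaf and root counts were closely related (Pearson r = 0.867, Spearman rho = 0.844), as a description of windows that share chromosome position and density. For specific peaks alone the values were 0.469 and 0.435.

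**Figure D4:**
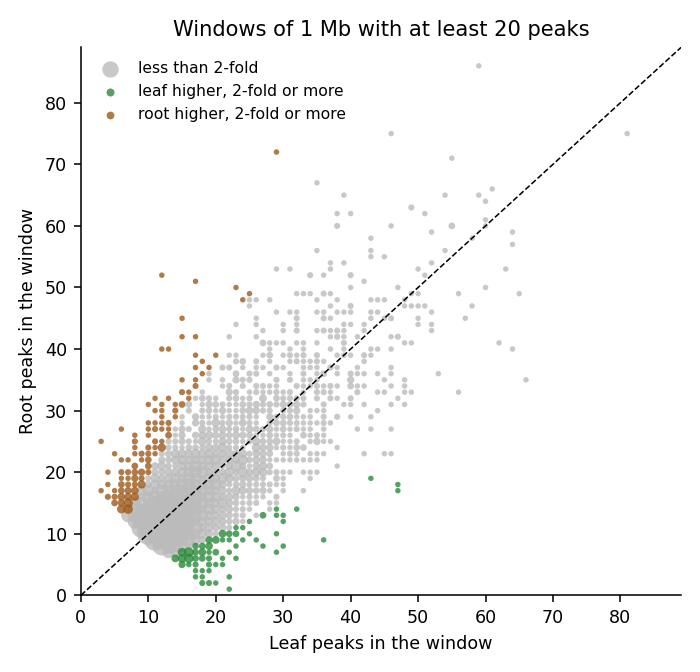
Leaf peaks (x axis) and root peaks (y axis) in each of the 4496 windows of 1 Mb with at least 20 peaks; larger points stand for more windows with the same pair of counts, and the dashed line marks equal counts. The 140 leaf-higher windows have a median of 18 leaf and 7 root peaks, and the 192 root-higher windows a median of 8 leaf and 20 root peaks.

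As windows were ordered by their ratio, those at both extremes held few peaks of the other tissue by definition. The most leaf-biased window, on 3B from 284000001 to 285000000, held 22 leaf peaks and 1 root peak, a scaled ratio of 21.3. It was followed by 3B from 325000001 to 326000000 (20 leaf peaks, 2 root peaks), which also holds the third widest leaf-specific peak, and by 5B from 163000001 to 164000000 (19 and 2), which is tied with 6B from 308000001 to 309000000 (19 and 2). These 4 windows lay in the interior, at 34.2%, 39.2%, 22.9% and 42.8% of the chromosome length. The most root-biased window, on 7B from 674000001 to 675000000, held 25 root and 3 leaf peaks, and the longest root-specific run lies across its start. It was followed by 7B from 744000001 to 745000000 (17 root, 3 leaf) and 6D from 18000001 to 19000000 (20 root, 4 leaf). All 3 lay in the outer 20% at either end, at 89.9%, 99.2% and 3.91% of the length.

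Chromosomes differed in which tissue had more specific peaks of its own. Over all chromosomes there were 1.08 leaf-specific peaks per root-specific peak (95% interval 1.06 to 1.09). By raw counts leaf-specific peaks outnumbered root-specific peaks on 15 of 21 chromosomes, with an interval above 1 on 11. The reverse held on 6, with an interval below 1 on 2. These counts were not scaled to list size, and the leaf list was the longer. In lists cut to the same length there were 51151 leaf-specific and 50797 root-specific peaks. Chromosomes above and below 1 were not counted for those lists. Chromosome 4B had the highest ratio, with 2508 leaf-specific and 1711 root-specific peaks (1.47, 1.38 to 1.56). It was followed by 6A with 2121 and 1540 (1.38, 1.29 to 1.47) and 4D with 2059 and 1646 (1.25, 1.17 to 1.34). The lowest ratios were those of the 3 chromosomes of group 7. They were 0.891 (0.847 to 0.938) on 7D with 2772 and 3110 peaks, 0.922 (0.873 to 0.973) on 7A with 2523 and 2738, and 0.964 (0.912 to 1.02) on 7B with 2458 and 2549. The intervals of each pair of neighbours in this order overlapped, so single steps of the order are not resolved. The windows followed this order in part. Leaf-higher windows were most frequent on 4B (16 of 173, 9.25%, against 3.11% overall), but 4D had 6 leaf-higher and 6 root-higher windows (3.55% each). Root-higher windows were most frequent on 7D (22 of 244, 9.02%, against 4.27% overall) and 7B (8.42%), followed by 4A (7.22%) and 7A (6.76%).

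**Figure D5:**
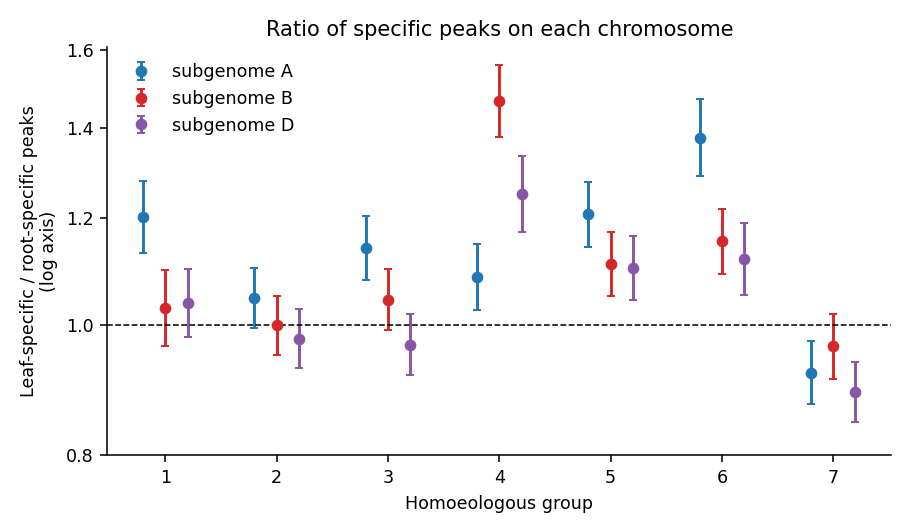
Ratio of leaf-specific to root-specific peaks (y axis, log axis) on each chromosome, by homoeologous group (x axis) and subgenome (color). Bars are 95% Wilson intervals over peaks and the dashed line marks equal numbers; group 7 lies lowest in each subgenome, and 4B and 6A lie highest.

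Some of these differences recurred in the homoeologous chromosomes. Within each subgenome the group 7 chromosome had the lowest ratio and the largest root-specific share of root peaks (44.7%, 46.1% and 46.6% for 7A, 7B and 7D, against 42.1%, 43.4% and 43.6% on the next highest). As a group, 7 had 7753 leaf-specific and 8397 root-specific peaks (ratio 0.923, 95% interval 0.895 to 0.952), the lowest ratio of all groups. In these counts, which were not scaled to list size, no other group had a ratio below 1. Group 2 came next at 1.007, with an interval that holds 1 (0.977 to 1.037). Like group 2, group 3 (1.045) lay below the 1.08 of all chromosomes together. The leaf-specific share of leaf peaks was not low in group 7, at 43.98% against 43.5% in the whole list. Group 4 had the highest ratio (1.25, 1.21 to 1.29), which was uneven within the group: 1.09 on 4A, 1.47 on 4B and 1.25 on 4D. Group 6 followed at 1.202 (1.16 to 1.25). Group 5 was the least distal in all classes of peaks. Its chromosomes had the lowest distal shares of their subgenomes for shared leaf peaks (53.9% on 5A, 51.03% on 5B, 52.02% on 5D), for root-specific peaks (58.6%, 56.01% and 55.8%) and for leaf-specific peaks (50.05%, 46.5% and 48.2%). The leaf-specific share of 5B was close to the next lowest of its subgenome (48.0% on 1B). These groups were singled out after their values were seen.

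The specific shares of the subgenomes differed by at most 2.37 percentage points on average, and no difference passed the test on peak counts. Leaf-specific peaks made up 42.95% ± 1.52 of the leaf peaks of A chromosomes (SD, n = 7 chromosomes), 44.6% ± 1.47 of B and 43.1% ± 1.22 of D. Root-specific peaks made up 39.9% ± 2.72 of the root peaks of A, 42.2% ± 2.54 of B and 42.03% ± 2.70 of D. The mean log2 ratio of leaf-specific to root-specific peaks was 0.18 ± 0.18 for A, 0.14 ± 0.20 for B and 0.06 ± 0.16 for D chromosomes. None of the 9 contrasts between 2 subgenomes passed an exact permutation test (two-sided, by sign flips of the difference) over the 7 homoeologous groups (smallest Benjamini-Hochberg adjusted p = 0.164), and 2 had an unadjusted p under 0.05. These 2 were B above D in the leaf-specific share, by 1.51 ± 1.36 percentage points and in 6 of 7 groups (exact permutation p = 0.0312, adjusted p = 0.164), and B above D in the log2 ratio, by 0.08 ± 0.08 and in 6 of 7 groups (exact permutation p = 0.0469, adjusted p = 0.164). With a reciprocal overlap of 50% the B minus D difference of the leaf-specific share had the opposite sign (-0.66 percentage points). That of the log2 ratio kept its sign (0.055). Counted in bases in place of peaks, 3 contrasts passed the exact permutation test. The leaf-specific share of bases on B was above that on A by 1.33 and on D by 2.16 percentage points, and B was above D by 0.076 in the log2 ratio (adjusted p = 0.0469 for each, exact permutation test). These p-values measure the spread between chromosomes of these lists, with 0.0156 as the smallest that 7 groups allow. A single contrast at this smallest p would still miss the threshold of 0.05 after adjustment over the 9 tests. That none passed on peak counts therefore does not show that the subgenomes are alike.

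Per length, specific and shared peaks alike were densest on the D subgenome, the shortest. D chromosomes had 4.49 ± 0.24 leaf-specific peaks per Mb (SD, n = 7 chromosomes), against 3.60 ± 0.22 on A and 3.47 ± 0.40 on B. They had 4.33 ± 0.57 root-specific peaks per Mb, against 3.20 ± 0.39 on A and 3.16 ± 0.44 on B. Shared leaf peaks numbered 5.93 ± 0.48 per Mb on D, 4.803 ± 0.48 on A and 4.30 ± 0.51 on B. D was above A and above B in 7 of 7 groups for leaf-specific, root-specific and shared peaks. Single chromosomes ranged from 2.65 leaf-specific peaks per Mb on 1B to 4.78 on 5D, and from 2.49 root-specific peaks per Mb on 6A to 4.87 on 7D. Position differed between the tissues in each subgenome. The distal share of leaf-specific peaks was 58.8% in A, 52.4% in B and 56.98% in D, and that of root-specific peaks was 70.7%, 66.3% and 68.02%.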

How the data were processed

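Each deposited list gives the chromosome, start and end of the authors' peaks for 1 tissue and is cited, per the labels, by both of its libraries. Trimmomatic 0.36, Bowtie2, MACS2 and bedtools were used, per the submitters' processing notes. Genome build, peak threshold and treatment of replicates: not given in the sources used here. The other 2 lists were not used here.

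Both lists were checked to hold no repeated or overlapping peaks, with all peaks on 21 chromosomes. Starts, read as counted from 0, are printed as counted from 1. Chromosome length was the end of the last peak of either list (14065 Mb in all), and positions are peak midpoints. Overlap was computed in Python 3.11.15 with pandas 2.3.3 and SciPy 1.17.1, was tested on simulated lists and gave the same counts as bedtools 2.31.1. P-values of the 9 subgenome tests were adjusted together (Benjamini-Hochberg), with 0.05 as the threshold. Alternatives were a reciprocal overlap of 50%, 500 bp gaps counted as overlap, peaks of at least 500 bp, lists of equal length, other limits for distal peaks, bases in place of peaks, other windows, and each homoeologous group left out. Named regions are the 3 widest peaks of each class, the 3 windows at each extreme, the 2 longest runs per tissue and the 3 chromosomes at each extreme. The comparison, its classes and its rules were chosen with earlier results of these data known.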

Additional observations from a re-analysis of the deposited data

Results flagged for a closer look

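The 7 chromosomes of each subgenome were checked for a lowest or highest value far from the others by Dixon's test, for 5 measures and 15 sets of chromosomes. Of these sets 3 had such a value, where chance gives about 1 set in 20 if sets are independent. These sets are not, since the measures rest on the same peaks, so the 3 cannot be weighed against that rate. The log2 ratio of leaf-specific to root-specific peaks was 0.55 on 4B, against -0.05 to 0.21 on the other B chromosomes. This value passed narrowly: its gap to the next, divided by the range, was 0.572, against a limit of 0.568. The distal share of root-specific peaks was 58.6% on 5A, against 71.5 to 73.4% on the other A chromosomes. The same share was 55.8% on 5D, against 67.2 to 71.5% on the other D chromosomes. On 5B it was 56.01%, the lowest of the B chromosomes but not far enough from the next (63.95% on 1B) to stand apart by this test. Shared leaf peaks were also least distal on 5A (53.9%, against 58.3% or more on the other A chromosomes) and on 5D (52.02%, against 56.7% or more on the other D chromosomes), and so were leaf-specific peaks (50.05% and 48.2%). Chromosomes of 1 list are not replicates of a tissue.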

How the results depend on the processing

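With a reciprocal overlap of 50%, 37.9% of leaf and 39.0% of root peaks were shared, and 57.9% of leaf-specific and 66.2% of root-specific peaks were distal. Where gaps of 500 bp or less counted as overlap 60.2% and 61.1% were shared, among peaks of at least 500 bp 53.1% and 55.7%, and in lists cut to the same length 57.2% and 57.5%. The distal share of root-specific peaks was 69.95% among peaks of at least 500 bp. In the outer 10% lay 34.96% of leaf-specific and 47.3% of root-specific peaks, and within 50 Mb of an end 27.9% and 39.0%. Among specific peaks more than 10 kb from the other list, chosen after seeing the data, 50% and 66.7% were distal, and weighting root-specific peaks to the widths of leaf-specific peaks, also chosen then, gave 68.6%. The distal share of root-specific peaks was above that of leaf-specific peaks on 21 of 21 chromosomes under each of the 4 changes of overlap rule, width or list length.

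With a reciprocal overlap of 50% the B minus D difference was -0.66 percentage points in the leaf-specific and -1.56 in the root-specific share. By the 1 bp rule these differences were 1.51 and 0.21, so both changed sign. The A minus D difference of the leaf-specific share was -0.19 by the 1 bp rule on all peaks. It was 2.01 among peaks of at least 500 bp and 0.83 in bases. Over the groups left out in turn it ranged from -0.38 to 0.022, and the B minus D difference of the root-specific share from -0.21 to 0.33. In bases the leaf-specific share gave -1.33 for A minus B and 2.16 for B minus D, and the log2 ratio 0.076 for B minus D (adjusted p = 0.0469 each, exact permutation test). The cause of these changes was not tested. Over all other alternatives of the 9 contrasts none passed the exact test. With 1 group left out the smallest p that the exact permutation test allows is 0.03125 before adjustment. A single contrast could therefore not pass in those runs, and their failure to pass decides nothing.

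Windows that were leaf-higher and root-higher numbered 593 and 450 with at least 10 peaks, 12 and 43 with at least 40, and 32 and 120 among peaks of at least 500 bp. No paired analysis was possible because both libraries of a tissue stand behind 1 list. Results without single replicates were not run, since no list is of 1 library. Depth is unknown and limits each comparison of list sizes and each absence of a peak.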

Other observations

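The 2 ends of the chromosomes, in the direction of the coordinates, differed in the same way in all classes of peaks. The first 20% of the length held 23.9% of leaf-specific, 27.4% of root-specific and 23.3% of shared leaf peaks, and the last 20% held 32.1%, 40.9% and 36.6%. The lists also differed in the step of their widths. Widths were multiples of 25 bp for 89.3% of leaf peaks and 95.7% of root peaks, and both lists held no peak under 201 bp and no gap between neighbouring peaks under 201 bp. How this step bears on the widths compared here was not tested.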
